A study of Mus musculus with 4 samples.

Results

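The Reg (regenerating islet-derived) genes encode small secreted proteins built around a C-type lectin fold. The 7 mouse members examined here were Reg1, Reg2, Reg3a, Reg3b, Reg3d, Reg3g and Reg4. They were found by symbol among the RefSeq IDs of the count tables, where they make up 7 of 23003 named genes and 8 of 30794 IDs, since Reg3d has an ID for each of its isoforms. In the body, Reg1 and Reg2 are best known from the exocrine pancreas, Reg3b and Reg3g are bactericidal lectins that Paneth cells and enterocytes release onto the gut lining, and Reg4 is made by secretory cells of the gut. In the thymus, medullary epithelial cells transcribe many such tissue-restricted genes and present their products to developing T cells, and the nuclear protein Aire is known to be needed for a large share of this transcription.

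RNA-seq was performed on 4 libraries of mTEChi, that is, mature thymic medullary epithelial cells gated on abundant MHC class II. There were 2 libraries from Aire-KO (Aire-/-) mice and 2 from WT mice, 1 of each in a first experiment and in a replicate experiment. All mice were on the C57BL/6 (B6) background and 4 weeks old, and the Aire-deficient animals came from another laboratory whereas the WT animals were purchased. Each library came from a pool of 4 mice, with cells sorted for a lack of CD45 and Ly51 and for high I-A/E, so that 1 pool stands for each genotype in each experiment. The Aire-KO mice lack Aire in the whole animal and not in a chosen cell type, and the sources used here do not name the deleted exons. Mouse source therefore cannot be told apart from genotype.

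Total counts over all IDs were 168899954 and 242862323 in the Aire-KO libraries, against 191404483 and 111077552 in the WT libraries. Aire transcripts gave 200697 and 175884 counts in Aire-KO cells, against 87229 and 36597 in WT cells (ID NR_073358, log2 fold change 1.61, adjusted p = 0.0885 by edgeR, 0.000448 with the experiment as a block). Since transcript was still counted in the Aire-KO libraries, these counts do not check the labels. Levels are given as CPM, counts per 1000000 of the library's total after TMM scaling. That total is over all IDs, so a read shared by several IDs is counted on each of them. With 1 ID per gene the totals were 117079514 and 169143186 in Aire-KO, and 134927585 and 79040237 in WT. All 15 mTEC markers were detected, with summed levels of 32933 and 38857 CPM in Aire-KO and 18935 and 30524 CPM in WT. Their list holds Aire and MHC class II genes, which dendritic cells and B cells also express, so this sum does not measure purity. The markers of other cells had lower sums, each over its whole list: dendritic cell and macrophage markers summed to 347 and 361 CPM in Aire-KO and 298 and 546 CPM in WT, fibroblast markers to 280 and 254 CPM in Aire-KO and 107 and 82.7 CPM in WT, and thymocyte markers to 32.7 and 38.1 CPM in Aire-KO and 41.7 and 61.3 CPM in WT. Markers of cortical epithelium summed to 267 and 238 CPM in Aire-KO and 196 and 213 CPM in WT, those of endothelium and B cells to at most 61.7 CPM, and those of red cells to 15.9 and 110.5 CPM in Aire-KO and 20.9 and 226 CPM in WT. Of the fibroblast markers 3 were called higher in Aire-KO, and of the dendritic cell and macrophage markers 3 were called lower. None of the matched markers was at 0 in every library, and the part of these cells in the results below was not tested.

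The genes other than Reg4 form a cluster of 97.99 kb on chromosome 6 of mm9, the build of the counts. In order along it are Reg3b (78320879 to 78323460, plus strand), Reg3d (78325868 to 78328859, minus strand), Reg3a (78330703 to 78333833, plus strand), Reg2 (78355149 to 78358091, plus strand), Reg1 (78375974 to 78378661, plus strand) and Reg3g (78416262 to 78418868, minus strand). Reg4 stands apart on chromosome 3 (98026079 to 98040671, plus strand). Each has 6 exons, except 5 in the shorter Reg3d isoform, and transcripts of 644 to 1021 bp. No other gene of the GENCODE annotation (0) overlaps a member or lies within the cluster, which matters here because the library kit did not mark strand.

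The 60 bases before the RefSeq start of each gene are shown because the members differ there. For Reg1 that start lies 3 bases inside the GENCODE span given above, and for the other members the starts coincide. They were taken from RefSeq promoters (GRCm38) and found once each, letter for letter, in mm9, and the windows below are placed in mm9. Capitals mark TATAAA, the core of the TATA box, on the strand of the gene.
Reg3b: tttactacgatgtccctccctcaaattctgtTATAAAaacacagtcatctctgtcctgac
Reg3g: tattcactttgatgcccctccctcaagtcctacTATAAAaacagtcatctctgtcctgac
Reg1: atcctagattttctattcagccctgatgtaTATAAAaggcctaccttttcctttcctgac
Reg2: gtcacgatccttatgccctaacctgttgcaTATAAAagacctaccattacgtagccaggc
Reg3a: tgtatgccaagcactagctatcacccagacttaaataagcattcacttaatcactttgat
Reg3d: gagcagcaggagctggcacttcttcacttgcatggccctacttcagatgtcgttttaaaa
Reg4: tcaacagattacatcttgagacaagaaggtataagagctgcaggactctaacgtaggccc

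The windows lie at chr6:78320819-78320878 (Reg3b, plus strand), chr6:78418869-78418928 (Reg3g, minus strand), chr6:78375917-78375976 (Reg1, plus strand), chr6:78355089-78355148 (Reg2, plus strand), chr6:78330643-78330702 (Reg3a, plus strand), chr6:78328860-78328919 (Reg3d, minus strand) and chr3:98026019-98026078 (Reg4, plus strand). TATAAA began 27 to 30 bases before the start in 4 of the 7 genes, at -30 in Reg1 and Reg2, -29 in Reg3b and -27 in Reg3g, with -1 as the base just before the RefSeq start. The same letters were present in 2.874% of the 60-base windows of 32851 RefSeq promoters. These exact letters are not in the windows of Reg3a, Reg3d and Reg4, and variants of the TATA box were not searched. The windows of Reg3b and Reg3g share an identical run of 20 bases, the longest of any pair of members, against 9 bases for Reg1 and Reg2. Over the whole promoter of 300 bases, either strand, CACCTG (an E-box) was found in Reg2, Reg3a, Reg3b, Reg3d and Reg4 and in 20.212% of all promoters, and TTCNNNGAA (the STAT consensus) in Reg3b and Reg3d and in 8.298% of all promoters. A match is a description of the letters and not of a bound site.

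All 7 Reg genes had lower CPM in both Aire-KO libraries than in both WT libraries, and 6 passed the test. The test was edgeR's quasi-likelihood test over 26790 IDs with Benjamini-Hochberg adjustment, and an ID with an adjusted p under 0.05 is referred to as called. Of all IDs, 5.58% were called lower in Aire-KO, 0.258% were called higher, and 28.4% had both Aire-KO libraries under both WT libraries without regard to the test. The members therefore stood at 6 of 7 (85.7%) called lower, with none called higher. With the experiment as a block the whole table gave 4428 lower and 2777 higher IDs in place of 1495 and 69, and the same number of Reg genes. The median log2 fold change (Aire-KO over WT) was -4.20 over the 7 genes and 0.03 over all IDs. Library sizes without TMM factors shifted the median of all IDs by -0.29, which is small beside the members' values. In these bulk samples, fewer cells with a transcript and less of it per cell cannot be told apart.

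**Figure D1:**
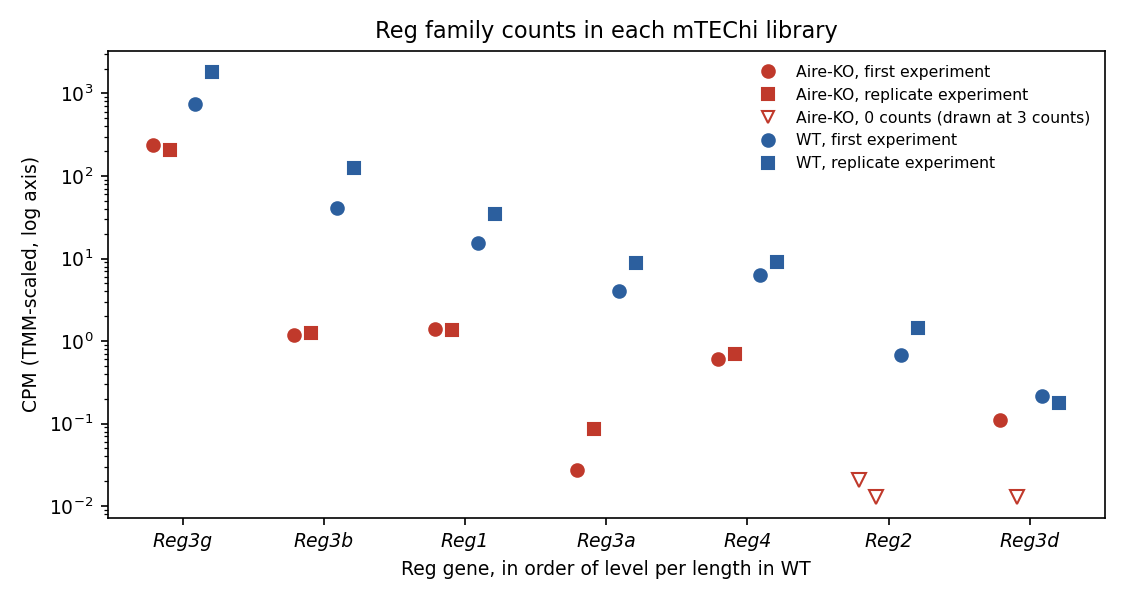
Level (CPM, TMM-scaled, log axis) of each Reg gene in every library, Aire-KO (red, left) and WT (blue, right), circles for the first and squares for the replicate experiment. Open triangles stand for 0 counts and are drawn at 3 counts. In each gene both Aire-KO points lie below both WT points, and Reg3g stands at 240 and 208 CPM in Aire-KO cells, far above the other members.

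Reg3g, a lectin that kills Gram-positive bacteria by binding their peptidoglycan, was the most abundant member in every library. It gave 34817 and 47801 counts in Aire-KO cells, against 161260 and 217141 counts in WT cells. Scaled to library size these were 240 and 208 CPM in Aire-KO, against 736 and 1822 CPM in WT. The Aire-KO libraries were thus close to each other and the WT libraries lay 2.47-fold apart. Among 19772 genes, Reg3g ranked at 492 and 505 in the Aire-KO libraries, against 52 and 16 in the WT libraries. The log2 fold change was -2.52 ± 0.53 (SE), the mildest of the 6 called members, with adjusted p = 0.0483 by edgeR. Without WT replicate 2 the difference was -1.73 with adjusted p = 0.0781, so the call of Reg3g rests on that library, and it was called in the 11 other alternatives.

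Reg3b, a bactericidal lectin at the other end of the cluster that acts on Gram-negative bacteria, was the second most abundant member in WT cells. It gave 173 and 289 counts in Aire-KO, against 8955 and 14819 in WT. In CPM it stood at 1.19 and 1.26 in Aire-KO, against 40.9 and 124 in WT, a gap far wider than that between libraries of a genotype. The log2 fold change was -6.08 ± 0.69 with adjusted p = 0.0176 by edgeR. Without WT replicate 2 it was -5.07 and still called.

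Reg3a, which in mice is expressed mainly in pancreas and gut, gave 4 and 20 counts in Aire-KO, against 886 and 1066 in WT. These are 0.0275 and 0.0870 CPM in Aire-KO, against 4.05 and 8.94 CPM in WT. Its log2 fold change of -6.75 ± 0.85 (adjusted p = 0.0183 by edgeR) was the largest that rests on counts in all libraries. It was -7.84 without Aire-KO replicate 2 and -6.06 without WT replicate 2, and it was called in both.

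Reg3d, the least abundant member, gave 16 and 0 counts in Aire-KO, against 47 and 21 in WT (ID NM_013893). The shorter isoform (NM_001161741), whose exons overlap those of the longer one, gave 13 and 0 counts in Aire-KO, against 42 and 21 in WT. The log2 fold changes were -1.88 ± 1.58 and -2.10 ± 1.56, and neither was called (adjusted p = 0.615 and 0.559 by edgeR). The Aire-KO libraries did not resemble each other here. In the first experiment the level in Aire-KO was 51.3% of that in WT (95% counting interval 27.1 to 92.1%), whereas in the replicate experiment it was 0 with an upper limit of 9.96%. Without Aire-KO replicate 1 the fit gave adjusted p = 0.0162 and 0.0193, with no count left in Aire-KO and hence no fold change that can be read as a size.

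Reg1, the pancreatic stone protein secreted by acinar cells, gave 204 and 309 counts in Aire-KO, against 3352 and 4179 in WT. In CPM these were 1.40 and 1.34 in Aire-KO, against 15.3 and 35.1 in WT. The log2 fold change was -4.20 ± 0.55 (adjusted p = 0.0194 by edgeR), and -3.49 without WT replicate 2, where it was called as well. Reg2, its closest relative, had no count in either Aire-KO library, against 147 and 170 counts (0.671 and 1.43 CPM) in WT. With 3 counts per library as the floor, the mean of Reg2 was at least 62.3-fold lower in Aire-KO (adjusted p = 0.0269 by edgeR). The same floor gave 32.5-fold in the first experiment and 109-fold in the replicate experiment. These bounds hold for the chosen floor only and leave out counting error in WT. Bounds of the fold given below are made likewise, on the means of the genotypes. A count of 0 does not show that the transcript was absent. The 95% counting interval, which includes the error in WT, was wider than the floor. In the first experiment it allowed up to 3.83% of the WT level and in the replicate experiment up to 1.14%.

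Reg4, the member outside the cluster, whose human counterpart binds carbohydrates without calcium, gave 89 and 162 counts in Aire-KO, against 1385 and 1069 in WT. Its CPM were 0.612 and 0.705 in Aire-KO, against 6.33 and 8.97 in WT. The log2 fold change was -3.53 ± 0.49 with adjusted p = 0.0211 by edgeR. Its libraries of a genotype were closer together than those of any other called member in WT, 1.42-fold apart.

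The experiments were then taken apart, because each holds 1 Aire-KO and 1 WT library. Reg3g in Aire-KO stood at 32.5% of WT in the first experiment (95% counting interval 32.2 to 32.9%) and at 11.4% in the replicate experiment (11.3 to 11.5%). Reg3b stood at 2.91% and 1.01%, Reg1 at 9.17% and 3.83%, Reg4 at 9.68% and 7.86%, and Reg3a at 0.680% and 0.973%, each in that order of experiments. Reg3g, Reg3b and Reg1 thus had a lower remainder in the replicate experiment, beyond counting error, whereas the intervals of Reg4 and of Reg3a overlapped between the experiments. The direction was the same in both experiments for all 7 genes.

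**Figure D2:**
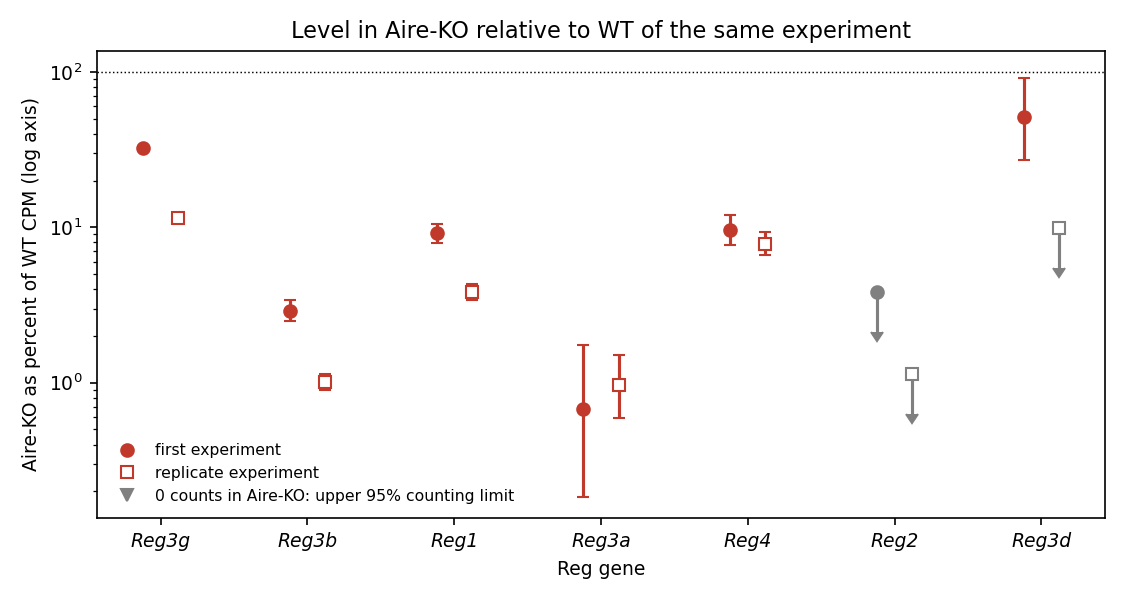
Level of each Reg gene in Aire-KO as a percent of the WT level of the same experiment (log axis, dotted line at equality), circles for the first and open squares for the replicate experiment, with 95% counting intervals. Grey points with arrows are upper limits where Aire-KO had no count. Reg3g keeps the largest share among the called genes, 32.5% and 11.4%, and Reg3b and Reg3a keep 0.680 to 2.91%.

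Most of this spread between experiments lay in the WT libraries. WT replicate 2 over WT replicate 1 in CPM was 3.04 for Reg3b, 2.47 for Reg3g, 2.29 for Reg1, 2.21 for Reg3a and 2.12 for Reg2, against 1.42 for Reg4 and 0.82 for Reg3d. Over all genes the median of this ratio was 1.01, and 10.2% of genes reached a ratio of 2. Over the 1228 genes called lower in Aire-KO, Reg genes among them, the median was 1.26, and 15.6% reached 2. Members at or above 2, all in the cluster, thus lay in the upper tail of the spread between WT pools. In the Aire-KO libraries the same ratio was between 0.87 and 1.15 for Reg3g, Reg3b, Reg1 and Reg4, and 3.16 for Reg3a, which rests on 4 and 20 counts.

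Levels were compared between members per transcript length, as RPKM. These are counts divided by transcript length and by the library's total over all IDs, without TMM factors. In Aire-KO cells the order was Reg3g (260 ± 8.51 RPKM, SD, n = 2), Reg1 (1.61 ± 0.06), Reg3b (1.46 ± 0.15), Reg4 (0.585 ± 0.097), Reg3a (0.063 ± 0.050), Reg3d (0.061 ± 0.086) and Reg2 (0). In WT cells it was Reg3g (1807 ± 1016), Reg3b (119 ± 81), Reg1 (35.8 ± 18.5), Reg3a (8.50 ± 4.20), Reg4 (8.26 ± 1.65), Reg2 (1.66 ± 0.78) and Reg3d (0.278 ± 0.051). In WT the ranges of neighbours in the order were separate except for Reg3a and Reg4, which did not differ beyond their spread. In Aire-KO the range of Reg3d overlapped that of Reg3a and that of Reg2, and Reg1 exceeded Reg3b by 1.11-fold only.

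The family was thus mostly Reg3g in both genotypes, and more so in Aire-KO. Reg3g made up 98.7% and 98.5% of the summed RPKM of the family in Aire-KO, against 91.7% and 91.1% in WT. Reg3b made up 0.500% and 0.607% in Aire-KO, against 5.19% and 6.34% in WT. Summed over the 7 genes the family reached 243 and 211 CPM in Aire-KO, against 804 and 2001 CPM in WT. Left without Reg3g, the sums were 3.34 and 3.39 CPM in Aire-KO, against 67.5 and 179 CPM in WT.

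Ratios of counts within a library do not depend on its depth and show the uneven change directly. Reg3g over Reg3b was 201 and 165 in Aire-KO, against 18.0 and 14.7 in WT, an 11.2-fold difference in the first experiment and 11.3-fold in the replicate experiment. Reg1 over Reg3b was 1.18 and 1.07 in Aire-KO, against 0.374 and 0.282 in WT. Reg4 over Reg3b was 0.514 and 0.561 in Aire-KO, against 0.155 and 0.0721 in WT. The groups did not overlap in any of these ratios, although an exact permutation test of 2 against 2 libraries cannot give a two-sided p below 0.333. The ratio of Reg1 to Reg4 was 2.29 and 1.91 in Aire-KO, against 2.42 and 3.91 in WT, a much smaller difference.

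**Figure D3:**
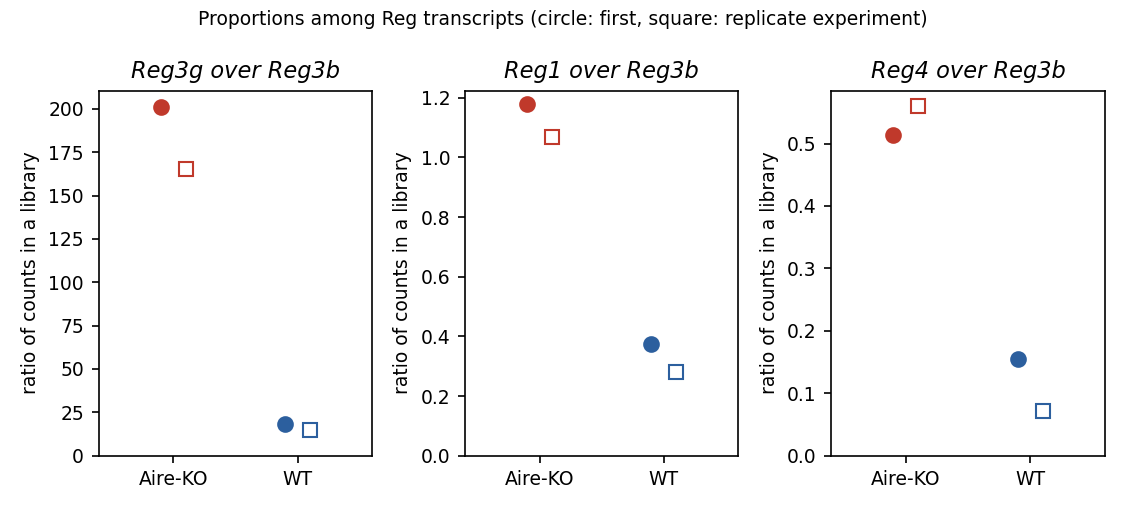
Ratio of the counts of 1 Reg gene to those of Reg3b within each library (linear axes from 0), Aire-KO (red, left) and WT (blue, right), circles for the first and open squares for the replicate experiment. In all 3 panels the Aire-KO libraries lie above the WT libraries, with Reg3g over Reg3b at 201 and 165 against 18.0 and 14.7.

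Because the members are related, reads of one could in principle be counted on another. Coding sequences were 82.5% identical between Reg1 and Reg2, 76.4% between Reg3b and Reg3g and 76.5% between Reg3a and Reg3b. Cut into all 50-base windows that fit within an exon, the length of the reads, the members gave 422 to 729 windows per gene. No window occurred a second time in the mm9 genome, and none came within 2 mismatches of another member. The nearest were 2 windows of Reg3b at 3 mismatches from Reg3g. The low counts of Reg3b beside the many of Reg3g therefore do not share reads at 2 mismatches or fewer.

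The deposited tables also give reads for parts of each transcript. Among these parts is the d3'UTR, the stretch beyond a proximal polyadenylation site. None of the 8 Reg IDs has one, whereas 31.7% of 27567 IDs do, so no d3'UTR ratio could be formed. Few reads fell wholly within a 5'UTR. Reg4 had 0 and 0 there in Aire-KO, against 68 and 91 in WT. Reg3a had 3 and 0 in Aire-KO, against 6 and 27 in WT. The other members had 0 in every library, which their 5'UTRs explain by length. Those of Reg3b and Reg3g, 31 and 32 bp, are shorter than a read of 50 bp. Those of Reg1, Reg2 and Reg3d (71, 71 and 57 bp) are split over exons, with little or no room for a read. The last exon, which holds the end of the coding sequence and the 3'UTR, was counted as a part of its own. Coding exons here are those before the last exon. For some members the parts together held fewer reads than the count per ID, such as 2992 against 3352 for Reg1 in WT replicate 1. For Reg3g the Aire-KO level over the coding exons was 33.5% and 11.4% of WT in the first and the replicate experiment. Over the last exon it was 31.4% and 11.4%. For Reg3b these were 2.50% and 0.940% over the coding exons, and 3.90% and 1.14% over the last exon. For Reg1 they were 9.62% and 3.46% over the coding exons, and 7.27% and 4.56% over the last exon. For Reg3a they were 0.320% and 1.53% over the coding exons, and 0% and 0.245% over the last exon. In Aire-KO these Reg3a values rest on 1 and 18 reads in the coding exons and 0 and 2 in the last exon. Reads per bp of the last exon over the coding exons were 1.37 and 1.34 for Reg3g in Aire-KO, against 1.46 and 1.34 in WT. For Reg3b they were 1.39 and 1.02 in Aire-KO, against 0.888 and 0.838 in WT. The Aire-KO values of Reg3b rest on 76 and 106 reads in the last exon. A read had to lie wholly within an exon, which lowers values over the short coding exons.

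The genes next to the cluster were read from the same fit, to see whether the difference reached beyond it. On the side of Reg3b the nearest tested genes were Ctnna2, an alpha-catenin 391 kb away, and Lrrtm1, which lies within the span of Ctnna2. Ctnna2 gave 1798 and 1446 counts in Aire-KO, against 1836 and 1006 in WT, with a log2 fold change of 0.15 ± 0.46 and adjusted p = 0.920 by edgeR. Lrrtm1 had a log2 fold change of 1.36 (adjusted p = 0.348, and 0.00485 with the block). On the side of Reg3g, Gm20362, Gm20594 and Lrrtm4 had log2 fold changes of 0.57, -0.95 and -1.06, none called (adjusted p = 0.883, 0.341 and 0.726 by edgeR, with 0.0368 for Gm20594 under the block). 6330415B21Rik had 2 counts at most and was not tested. None of the tested neighbours was called in the fit without the block, where 5.58% of all IDs were called lower. Lrrtm1 and Lrrtm4 lay 1113 and 1550 kb from the cluster. With so few genes and such distances, the lack of a call does not tell where the difference ends.

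**Figure D4:**
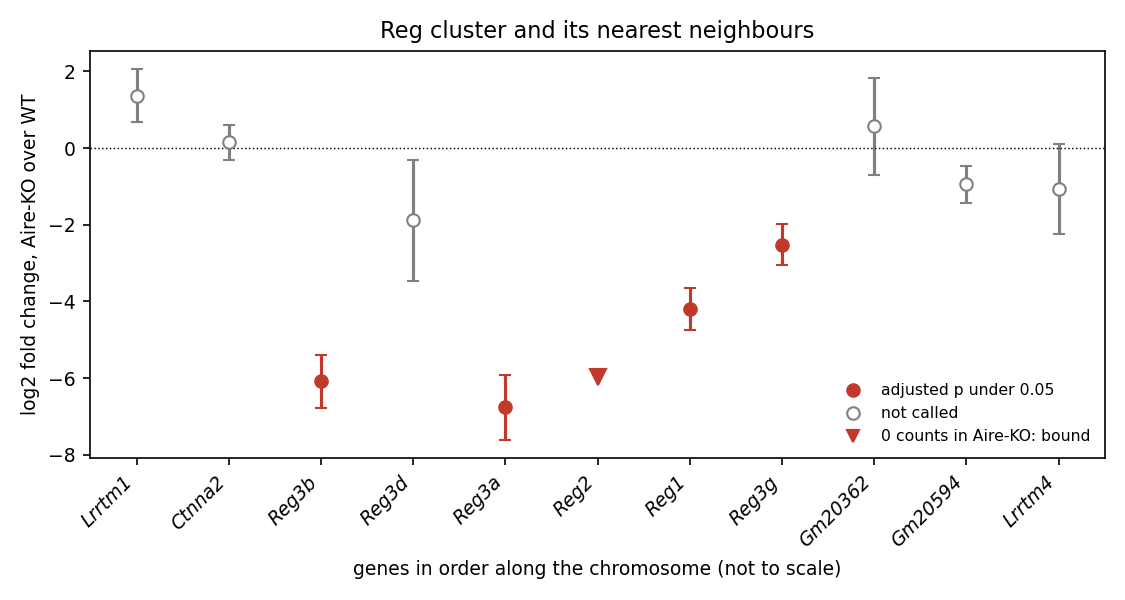
Log2 fold change (Aire-KO over WT, with SE) of the 6 clustered Reg genes and their tested neighbours, in order along the chromosome and not to scale. Filled points were called, open points were not, and Reg2 is drawn at its bound (triangle). The called genes, at -2.52 or below, lie between Reg3b and Reg3g, and the neighbours lie between -1.06 and 1.36.

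Neighbours of Reg4 were read in the same way, and none of those given here was called, which is likewise too few genes to tell. Phgdh, of serine synthesis, had a log2 fold change of 0.66 (adjusted p = 0.556), and Notch2, a Notch receptor 71.8 kb before Reg4, had 0.26 (adjusted p = 0.840). Adam30, Gm5544 and Zfp697 had log2 fold changes of -0.98, 0.23 and 0.50 with adjusted p of 0.744 to 0.936 by edgeR.

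The genes with the most similar levels to each member were found by Euclidean distance in log2 CPM over the 4 libraries. Nearest to Reg4 were Padi1, Serpinb9b and Kif12 (distances 0.34 to 0.43). Nearest to Reg1 were Slpi, a secreted protease inhibitor, Ly6c1 and Fam25c (0.51 to 0.77). Reg3b lay closest to Ptgds, Dmbt1, a scavenger receptor of mucosal surfaces, and Saa2, a serum amyloid A (1.55 or less). Nearest to Reg3a were Pla2g1b, the pancreatic phospholipase, Fgb and Cd207 (0.76 to 0.94), and nearest to Reg2 were 1700100L14Rik, Fam162b and Ins1, an insulin gene (0.23 to 0.26), all 3 with no count in Aire-KO. Reg3g and Reg3b had the most distant matches of the members. For Reg3g, Clu, Serpinb1a and Dstn were 1.66 to 1.83 away, and none of these 3 was called. Around Reg3d were genes at the limit of counting, Adcy10, Sall4 and AI606473 for the shorter isoform and A230057D06Rik, Prl2c1 and 1700017G19Rik for the longer one (0.29 to 0.39). A distance over 4 libraries, in which genotype is the main contrast, describes these libraries only.

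The Reg genes were next set beside genes of the tissues where they are known. Of 22 pancreatic acinar genes, 21 were tested, 14 were called lower in Aire-KO and none higher, with a median log2 fold change of -4.45, against -4.20 for the Reg genes. Pla2g1b gave 7 and 24 counts in Aire-KO, against 902 and 1378 in WT (log2 fold change -6.64, adjusted p = 0.0183 by edgeR). The lipase relative Pnliprp1 had -8.95, the trypsinogen Try4 -5.69 and the elastase Cela1 -4.83 (adjusted p = 0.0193, 0.0195 and 0.0264). Reads of trypsinogens may be shared between near-identical copies, and the value of Try4 is uncertain on that account.

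Among 20 genes listed as antimicrobial genes of the gut, not all of them restricted to it, 19 were tested. Of these, 11 were called lower and none higher. Their median log2 fold change was -3.54, or -2.93 with the 5 genes without counts in Aire-KO at their bounds. First by p were the Paneth cell alpha-defensins Defa21, Defa24, Defa20 and Defa22. Defa21 gave 1 and 0 counts in Aire-KO, against 561 and 654 in WT, and Defa20 none in Aire-KO, against 437 and 364, at least 149.9-fold lower. Alpha-defensins are near-identical to one another, so their reads cannot be assigned with certainty. Of 18 other secreted lectins, 6 were called lower and none higher, and 12 were with the block. They were led by Mbl2, a mannose-binding lectin, with 43 and 52 counts in Aire-KO, against 1408 and 1107 in WT (-4.91, adjusted p = 0.0176), followed by Fcna (-9.09), Clec3a (-7.20) and Sftpd (-2.83), a ficolin, a cartilage lectin and a surfactant collectin. The share of called genes was 66.7% for acinar genes, 57.9% for gut antimicrobial genes and 33.3% for secreted lectins, all above the 5.58% of the whole table.

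**Figure D5:**
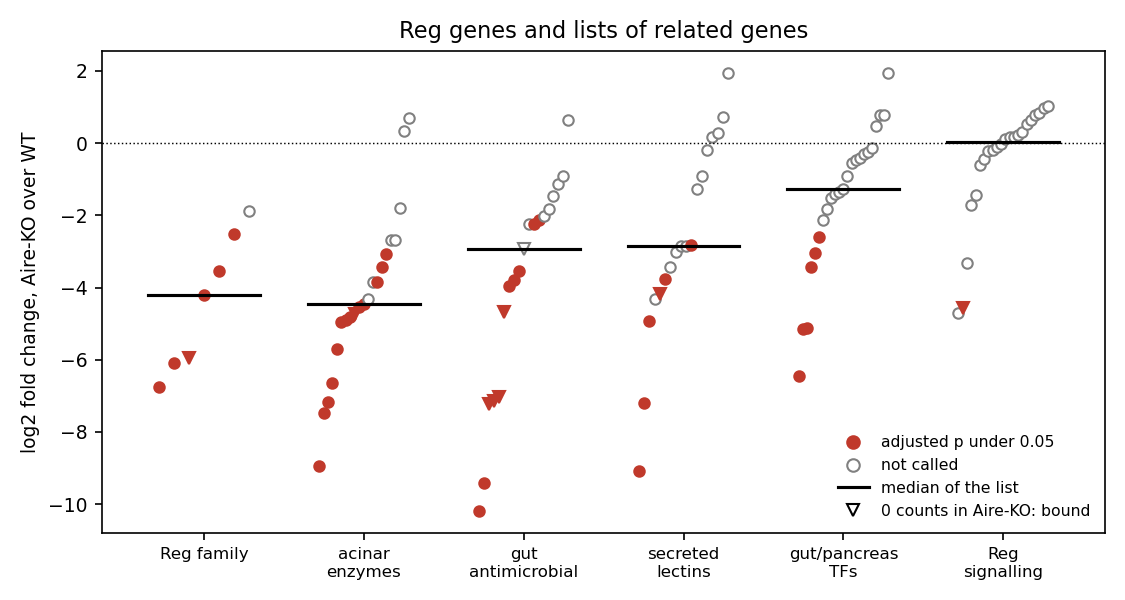
Log2 fold change (Aire-KO over WT) of each tested gene of the Reg family and of 5 lists, filled where called, with the median of each list as a line. Triangles are genes with 0 counts in Aire-KO, drawn at their bound. Medians lie at -4.20 for the Reg family, -4.45 for acinar genes, -2.93 for gut antimicrobial genes, -2.84 for secreted lectins, -1.27 for transcription factors and 0.03 for signalling genes.

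Of 22 genes of the signals that are known to induce Reg genes in gut and pancreas (interleukin-22, interleukin-6 and interleukin-17 with their receptors and Stat3) and of the proposed receptor Extl3, only Il17a was called, lower in Aire-KO, and none was called higher. With the block 5 were lower. Il17a had no count in Aire-KO, against 127 and 26 in WT, at least 23.7-fold lower. Next by p were Osm (-3.33, adjusted p = 0.111), Il22ra2 (-4.69, adjusted p = 0.127) and Stat3 (0.98, adjusted p = 0.177 by edgeR). Stat3, a transcription factor downstream of these receptors, gave 698 and 714 CPM in Aire-KO, against 391 and 324 CPM in WT. The median of the list was 0.03, as over all IDs. In the fit without the block 4.55% of its genes were called lower, near the share of the whole table. Of 23 transcription factors of gut and pancreas, 6 were called lower and none higher, with a median of -1.27, and only 2 were without WT replicate 2. Cdx2, the intestinal homeobox factor, gave 14 and 42 counts in Aire-KO, against 999 and 633 in WT (-5.12, adjusted p = 0.0180). It was followed by Hnf4a (-2.61), Neurog3 (-5.14) and Spdef (-3.04), with adjusted p of 0.0366 to 0.0385 by edgeR.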

How the data were processed

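RNA was extracted from sorted mTEChi of Aire-KO and WT mice, and polyA-selected libraries were made with a TruSeq kit that does not mark strand. Kit version and sequencer differ between the sample labels and the methods. The submitters' processing notes name CASAVA, Bowtie 1.0.0 and bedtools, with mm9. The authors joined and trimmed paired reads into single reads of 50 bp, and what they deposited are unnormalized counts of reads that fall entirely within an exon of a RefSeq transcript, per ID and per feature. How reads with several matches were treated is not given in the sources used here.

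Each of the tables holds 1 experiment with a column per genotype, and no per-sample column was left unused (0). Members were found by symbol: 29352 IDs had one and 1442 had none. Counts were tested with edgeR 4.0.16 (TMM, filterByExpr, quasi-likelihood, genotype only, R 4.3.3) over all IDs, with Benjamini-Hochberg adjustment. TMM factors were 0.860 and 0.947 in Aire-KO and 1.14 and 1.07 in WT. The fit was tested on simulated data. RPKM used all counts and transcript length. Intervals are exact binomial intervals and, like the floor of 3 counts, cover counting error only. They treat every read as independent, and are too narrow where both reads of a pair or duplicate reads were counted. DESeq2 1.42.0, other normalizations and filters, the feature table, and leaving out each library were alternatives. Libraries of an experiment were treated as pairs only in the ratios per experiment and in the alternative fit with the experiment as a block. The main fit had no block and did not use this pairing. The pairing rests on the deposited tables and titles, which mark a replicate experiment. Deviations of paired libraries from the group means correlated at 0.516 over 19772 genes. The pools are separate, but with 2 per genotype p-values measure only the spread between these libraries.

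Promoters came from RefSeq tables (GRCm38) and annotation from GENCODE on mm9. Other computations used Python 3.11.15, numpy 2.4.6, pandas 2.3.3, scipy 1.17.1, numba and Biopython. The members and lists were chosen with earlier results of these data known. Genes named are the 7 members, the 4 genes of lowest p in each list, the 3 nearest genes on each side of the cluster and of Reg4, the 3 genes nearest in level to each member, and Aire. One item that this rule names is not reported here.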

Additional observations from a re-analysis of the deposited data

How the results depend on the processing

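Between 5 and 7 of the 7 Reg genes were called lower in Aire-KO under 12 alternatives, and no Reg gene changed direction in any of them. The 5 were found without WT replicate 2, where Reg3g was not called, and with the stricter filter of at least 1 CPM in 2 libraries, which removed Reg2 and Reg3d before testing. The 7 were found without Aire-KO replicate 1, where Reg3d was called. Over the whole table, 1495 IDs were called lower, against 2470 with library sizes alone, 3528 with DESeq2 and 4428 with the replicate block, and 1524 to 3664 when 1 library was left out. The 69 IDs called higher became 143 without the filter, 565 with DESeq2 and 2777 with the replicate block, and 66 to 521 when 1 library was left out. The secreted lectins called lower, 6 of 18, became 11 with DESeq2, 12 with the replicate block and 7 to 11 without 1 library. The signalling genes called lower, 1 of 22, became 4 with DESeq2, 0 with the stricter filter, 5 with the replicate block and 1 to 4 without 1 library. The 6 transcription factors became 2 without WT replicate 2 and the range was 2 to 6 without 1 library. Apart from the library left out and the genes removed by the stricter filter, the cause of these changes was not tested. The replicate block changed the call of no Reg gene. With 1 library left out, the remaining library of that genotype is assumed to vary like the others. Against 3 counts over the group in place of 3 per library, Reg2 was at least 131-fold lower. Counted over positions where a read can start, Reg levels per length were higher, with Reg3g at 401 RPKM in Aire-KO and 2786 RPKM in WT. Depth limits Reg3d, with at most 47 counts in a library.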
